A study of Mus musculus with 6 samples.

Results

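The mitochondrial ribosomal protein genes were the 77 symbols of the count table that consist of Mrpl or Mrps, a number and an optional letter a, b or c, out of 25628 symbols in all. Of these, 48 carried an Mrpl symbol, the name given to proteins of the large subunit, and 29 an Mrps symbol, for the small subunit. All 77 were among the 14158 genes that passed the filter on low counts, and the lowest of them, Mrpl23, lay between 1.78 and 3.81 CPM (counts per 1000000 counts of a library) over the 6 libraries, so that no member entered through a single group. Mrpl53 was not analysed here, and 4 pseudogenes named after members fell outside the rule.

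The libraries came from TgSpi1 erythroleukaemic cells of the mouse, leukaemic erythroid cells of the bone marrow with overexpressed Spi1, the gene of the ETS transcription factor PU.1. All cells belonged to a single line, carried the Spi1 transgene together with a doxycycline-inducible shRNA against Spi1, and grew in culture with erythropoietin (EPO). In 3 libraries the cells had received doxycycline for 48 h, and in the other 3 they were untreated. The libraries of each group were numbered 1 to 3, and the labels call them biological replicates without saying what a number stands for or that the cultures were separate, so p-values measure the spread between these samples, which may be technical.

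Mitochondria translate the few mRNAs of their own genome, all for subunits of the respiratory chain and the ATP synthase, on a ribosome of their own. Its RNAs are made inside the organelle, whereas all of its proteins are encoded in the nucleus, made in the cytosol and imported, part of them related to proteins of the bacterial ribosome and part found in mitochondria only. Erythroid cells depend on mitochondria for heme synthesis and dispose of them at the end of maturation. Doxycycline is a tetracycline, a class of antibiotics that act on the bacterial ribosome and are known to slow translation in mitochondria. No group of the study received doxycycline without the shRNA, so an effect of the drug and an effect of the loss of Spi1 cannot be told apart in any comparison here.

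Total counts per library ran from 78926663 to 101276319, of which the 77 members took between 0.528% and 0.683%. Spi1 stood at 414.5, 353.5 and 329.6 CPM in untreated libraries 1, 2 and 3 and at 84.8, 80.4 and 62.1 CPM in the doxycycline libraries, a log2 fold change of -2.27 (SE 0.17, edgeR adjusted p = 0.0030). All 9 erythroid markers measured were at 1 CPM or more in every library and summed to between 3455 and 6010 CPM. Markers of other blood and stromal cells were scarce: the 3 macrophage markers summed to at most 3.17 CPM, the 4 B cell markers to at most 1.29 CPM, the 3 T and NK cell markers to at most 0.293 CPM and the 2 stromal markers to at most 0.370 CPM. The 4 megakaryocyte markers, led by Pf4, summed to between 53.9 and 288 CPM in untreated and 31.1 and 151 CPM in doxycycline libraries. The 8 neutrophil markers, led by S100a9, summed to between 0.328 and 43.3 CPM in untreated and 0.176 and 11.3 CPM in doxycycline libraries.

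All 77 members were detected in every library, at levels that differed widely between them. Mean levels ran from 2.68 CPM (Mrpl23) to 230.7 CPM (Mrpl18), with a median of 81.2 CPM. Of the 77 members, 73 lay above 20 CPM and 21 above 100 CPM. Set per kilobase of exon, the scale on which genes of unlike length can be compared, the median was 44.4 CPM per kb and the range 2.78 to 209 CPM per kb.

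Mrpl20, Mrpl18 and Mrpl12 led the large subunit on that scale. Mrpl20, a relative of a bacterial protein that binds early in subunit assembly, stood at 214 ± 36.3 CPM per kb in untreated and 203.5 ± 44.8 CPM per kb in doxycycline libraries (SD, n = 3 each). Mrpl18, of the central protuberance at the top of the large subunit, stood at 179 ± 33.8 and 199 ± 27.4 CPM per kb. Mrps21 led the genes with an Mrps symbol with 168 ± 32.6 and 169 ± 35.8 CPM per kb (n = 3 each), followed by Mrps15 and by Mrps18a, whose protein sits in the large subunit in spite of its symbol. The untreated means of Mrpl20 and Mrpl18 differed by less than the SD of Mrpl20, whereas Mrps21 lay above Mrps15, at a mean of 95.1 CPM per kb over the 6 libraries, by more than its SD. At the other end Mrpl23, of the exit tunnel, stood at 2.46 ± 0.530 and 3.10 ± 0.746 CPM per kb, below every other member. The plot of levels by library shows this order for all members.

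**Figure D1:**
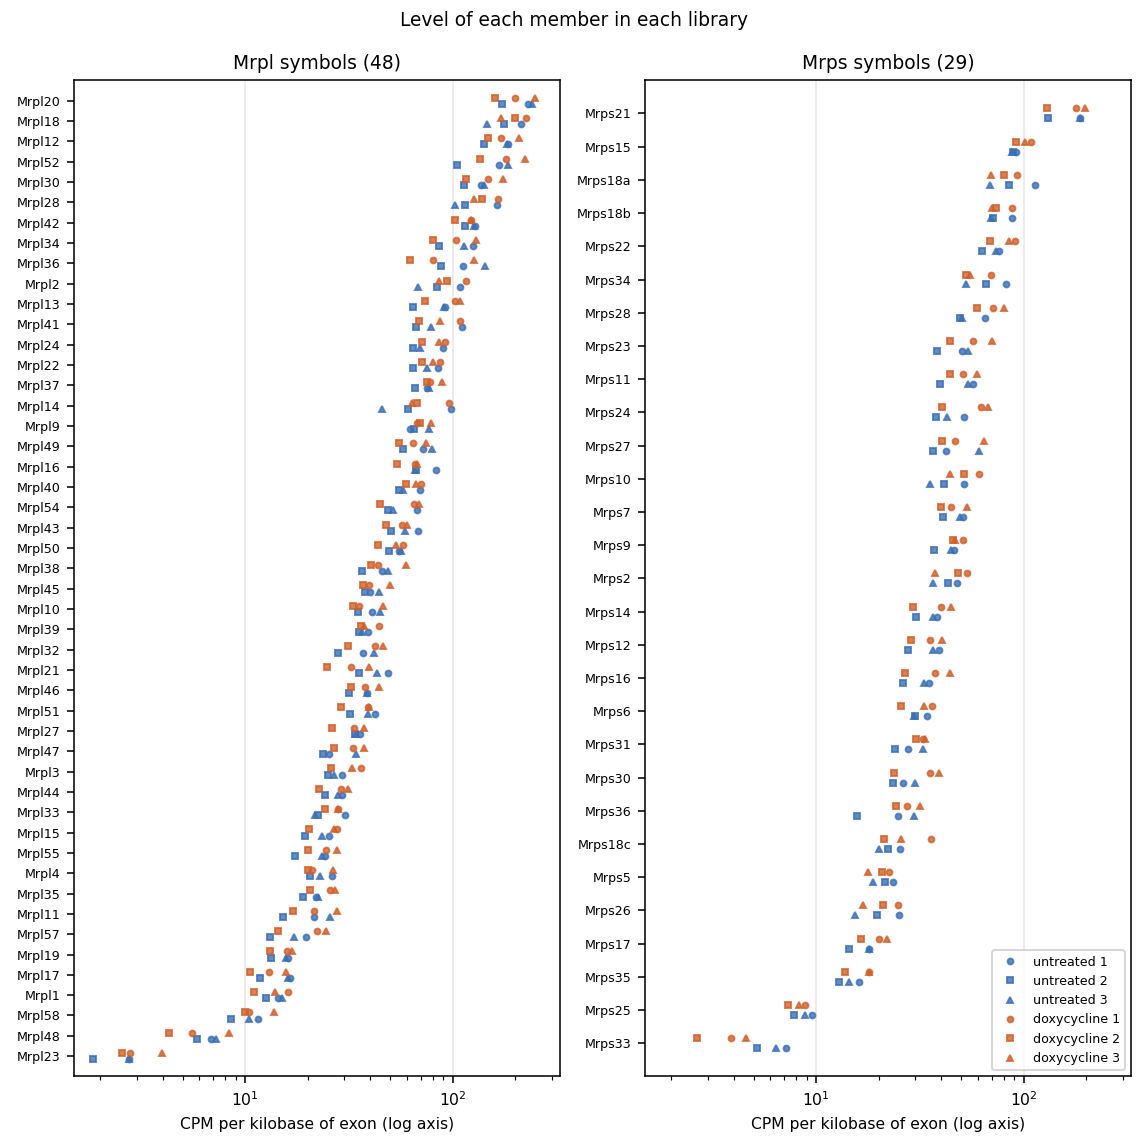
CPM per kilobase of exon (log axis) for each of the 48 Mrpl and 29 Mrps genes, ordered by mean level, with one point per library, untreated in blue and doxycycline in orange, and a marker shape for each replicate number. Most members lie within a range of 10 to 200 CPM per kb with the groups interleaved, Mrpl23 is lowest, and squares (number 2) lie to the left of the other shapes of their group for most members.

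Doxycycline left the mitochondrial ribosomal protein genes close to where they were. No member passed the test: 0 of 77 had an adjusted p under 0.05 (edgeR quasi-likelihood F test over all genes tested), against 2.59% of all genes, 0.417% higher and 2.18% lower. DESeq2 also called 0, and 1 member, Mrps33, had an unadjusted edgeR p under 0.05. The median log2 fold change of the members was 0.09, beside 0.01 over all genes tested. It was 0.08 for the Mrpl and 0.13 for the Mrps genes, and 55 of the 77 values were above 0. Without any single library, the median over all members lay between 0.014 and 0.20, that of the Mrpl genes between -0.0039 and 0.17 and that of the Mrps genes between 0.038 and 0.23. Members ranged from -0.75 (Mrps33) to 0.37 (Mrps24). The data bounded the change closely for most members: the 95% interval of the difference lay within 2-fold in either direction for 74 of 77, and within 1.5-fold for 43. Of the 9 erythroid markers, 6 were higher and 1 lower with doxycycline once the replicate number was a block in the model. That fit called 10.3% of all genes tested higher and 15.6% lower. In the same fit 3 of 4 megakaryocyte markers were lower and 1 higher, 2 of 3 macrophage markers were lower (median -1.19), and 1 of 6 neutrophil markers tested was lower (median -1.04). The part of these markers in the members' values was not tested. In a bulk measurement, fewer cells of a type and less RNA per cell cannot be told apart.

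Libraries of equal number resembled each other, and with the replicate number as a block in the model 5 members were called, 2 higher and 3 lower, against 25.8% of all genes tested (10.3% higher, 15.6% lower). The members' share, 6.49%, was below that background. The median stayed at 0.09, the middle 50% of members lay between -0.05 and 0.19 where those of all genes lay between -0.26 and 0.21, and the 95% interval lay within 1.5-fold for 71 of 77 members. A single member, Mrps33, was estimated beyond 1.5-fold in either fit.

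**Figure D2:**
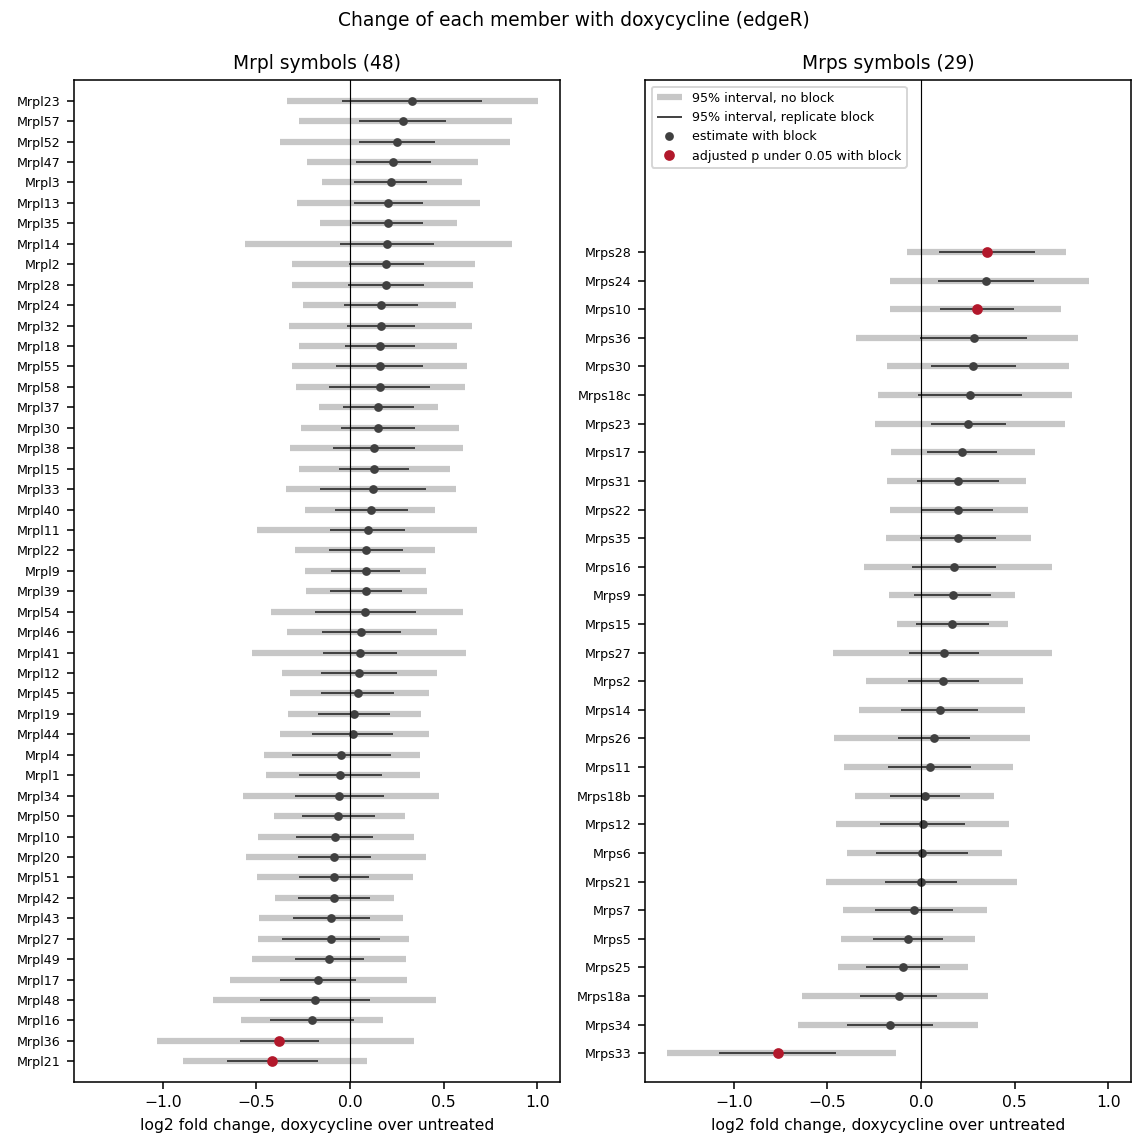
Log2 fold change (doxycycline over untreated, horizontal axis) of each member, ordered by its value with the replicate block. Points are estimates with the block, red where the adjusted p is under 0.05, thin dark lines their 95% intervals and thick grey lines the 95% intervals without the block. Of the 77 points 5 are red, and Mrps33 alone lies beyond -0.50.

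Mrps33 encodes a small-subunit protein that has no bacterial relative. The gene (ENSMUSG00000029918.9, chromosome 6 from 39801804 to 39810988 on the minus strand, GRCm38) stood at 10.996, 7.95 and 9.80 CPM in untreated libraries 1, 2 and 3 and at 5.99, 4.09 and 7.07 CPM in doxycycline libraries 1, 2 and 3. The highest doxycycline value was below the lowest untreated one, and Mrps33 was the only member whose groups did not overlap, 1 of 77 against 20.6% of all genes tested (8.88% higher, 11.7% lower). Its log2 fold change was -0.75 (SE 0.26, adjusted p = 0.22) without the block and -0.77 (SE 0.14, adjusted p = 0.0030) with it. Within equal numbers it was -0.88, -0.96 and -0.47.

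Mrpl21 and Mrpl36, both relatives of bacterial large-subunit proteins, were lower with the block. Mrpl21 (ENSMUSG00000024829.12, chromosome 19 from 3282901 to 3292837 on the plus strand) stood at 66.2, 48.4 and 59.0 CPM in untreated and 44.0, 33.8 and 53.6 CPM in doxycycline libraries. The groups overlapped, since doxycycline library 3 lay above untreated library 2, but each doxycycline library was below the untreated one of its number. The log2 fold change was -0.42 (SE 0.11, adjusted p = 0.019) with the block and -0.40 (adjusted p = 0.44) without it.

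Mrpl36 (ENSMUSG00000021607.9, chromosome 13 from 73328513 to 73332178 on the plus strand) stood at 129.6, 101.8 and 165.9 CPM in untreated and 93.6, 72.0 and 147.6 CPM in doxycycline libraries. Library 3 was the highest of both groups and library 2 the lowest, so that the groups overlapped while all 3 differences within numbers were negative, -0.47, -0.50 and -0.17. The log2 fold change was -0.38 (SE 0.09, adjusted p = 0.015) with the block and -0.34 (adjusted p = 0.68) without it.

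Mrps10 and Mrps28, both relatives of bacterial small-subunit proteins, were higher with the block. Mrps10 (ENSMUSG00000034729.16, chromosome 17 from 47368887 to 47381417 on the plus strand) stood at 61.1, 48.9 and 41.7 CPM in untreated and 72.0, 61.3 and 52.4 CPM in doxycycline libraries. Its values fell in the same order of numbers in both groups, and the differences within numbers were 0.24, 0.33 and 0.33. The log2 fold change was 0.30 (SE 0.09, adjusted p = 0.033) with the block and 0.29 (adjusted p = 0.57) without it.

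Mrps28 (ENSMUSG00000040269.5, chromosome 3 from 8802146 to 8923918 on the minus strand) stood at 51.3, 38.4 and 39.6 CPM in untreated and 55.7, 46.5 and 62.6 CPM in doxycycline libraries. Only doxycycline library 2 lay within the untreated range. The log2 fold change was 0.35 with the block (SE 0.11, adjusted p = 0.047) and without it (adjusted p = 0.44).

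These 5 calls rested on few libraries. Without both libraries of number 1, no member was called with the block (edgeR, 8 at an unadjusted p under 0.05), against 8.67% of all genes tested in that fit (2.56% higher, 6.11% lower). Without number 2, Mrps33 was the only member called lower, and Mrps28 was called higher with 4 others (Mrpl57, Mrps18c, Mrps24 and Mrps30), 6 members in all against 24.1% of all genes (9.21% higher, 14.9% lower). Without number 3, 4 members were called higher, among them Mrps10, and 7 lower, among them Mrps33, Mrpl21 and Mrpl36, 11 members in all against 33.4% of all genes (14.6% higher, 18.8% lower). The members' share was below that of all genes in each of these fits. With a correction for exon length and GC content added to the block, Mrps10, Mrps33, Mrpl21 and Mrpl36 were called and Mrps28 was not (adjusted p = 0.069), while Mrpl3, Mrpl47, Mrps17 and Mrps23 were called higher and Mrpl42 lower, 9 members in all against 28.9% of all genes tested (13.6% higher, 15.3% lower). The members named in this paragraph beyond the 5 were chosen after their values were seen.

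The proximal promoters of the called members are shown because the factor that the shRNA targets belongs to the ETS family, whose motif is common before genes of mitochondria. RefSeq windows of GRCm38.p6 were matched for 68 of the 77 members, and for Mrps28 none was. The start meant below is RefSeq's, which for each gene shown lay inside the gene by the positions given above. The sequences of Mrpl36 and Mrps10 lay inside those genes in full, so bases before RefSeq's start were not all before the gene. Each sequence below runs 5′ to 3′ on the strand of the gene, from 150 bases before RefSeq's start to 30 bases after it, with motif matches in capitals.
Mrps33, chr6:39810907-39811086, minus strand: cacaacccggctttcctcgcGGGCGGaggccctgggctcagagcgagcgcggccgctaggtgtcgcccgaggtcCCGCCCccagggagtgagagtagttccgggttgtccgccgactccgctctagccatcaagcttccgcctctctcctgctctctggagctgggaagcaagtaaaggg
Mrpl21, chr19:3282892-3283071, plus strand: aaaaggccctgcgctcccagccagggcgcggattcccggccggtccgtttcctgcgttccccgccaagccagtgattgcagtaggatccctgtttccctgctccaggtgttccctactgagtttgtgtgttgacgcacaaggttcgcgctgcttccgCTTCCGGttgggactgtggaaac
Mrpl36, chr13:73330859-73331038, plus strand: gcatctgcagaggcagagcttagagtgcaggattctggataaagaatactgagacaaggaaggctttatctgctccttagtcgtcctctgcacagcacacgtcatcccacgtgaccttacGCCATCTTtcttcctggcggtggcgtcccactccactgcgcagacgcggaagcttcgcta
Mrps10, chr17:47369047-47369226, plus strand: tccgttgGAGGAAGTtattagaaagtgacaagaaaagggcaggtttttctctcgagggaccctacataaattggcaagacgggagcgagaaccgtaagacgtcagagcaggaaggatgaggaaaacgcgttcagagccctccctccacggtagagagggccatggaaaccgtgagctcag

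Within the bases shown, Mrps33 held 2 matches to the SP1 letters GGGCGG, 130 and 76 bases before the start, the nearer as its reverse complement. In the rest of its window of 300 bases, Mrps33 also held a further SP1 match, 30 bases after the start, and the general ETS letters CCGGAAG as the reverse complement, 38 bases after the start. Mrpl21 held the same ETS letters as the reverse complement, 7 bases after the start. Mrpl36 held the YY1 letters AAGATGGC as the reverse complement, 30 bases before the start. Mrps10 held the PU.1 letters GAGGAAGT, 143 bases before the start. A match describes the letters of the window and no binding of a factor, and the absence of a match says only that these letters are not in it.

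Over whole windows of 300 bases, searched on both strands, with a gene counted where any of its windows held a match, the shares were as follows. The ETS letters CCGGAAG were in 25 of 68 members' promoters (36.8%), in 21.5% of those of all genes tested that had a window and in 9.93% of all genes of the promoter table. The YY1 letters AAGATGGC were in 12 (17.6%), against 5.69% and 3.19%. The NRF1 letters, GCGCA followed by any base and GCGC, were in 13 (19.1%), against 12.4% and 5.19%. The SP1 letters GGGCGG were in 34 (50%), against 68.9% and 38.2%. The PU.1 letters GAGGAAGT, which share the core GGAAG with CCGGAAG but cannot match at the same core, were in 1 member (1.47%), Mrps10, against 3.79% and 3.69%. ETS and YY1 matches can overlap by the letters AAG. These shares are descriptions, with no test.

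Members grouped by their place in the ribosome moved little. In the stalk that binds the translation factors, Mrpl10 had a log2 fold change of -0.07, Mrpl11 of 0.09 and Mrpl12 of 0.05, none of them called in either fit. Mrps12 of the decoding site, the part of the small subunit that checks codon against anticodon, had a value of 0.01. Mrpl45, which anchors the ribosome to the inner membrane, had a value of 0.05. The 7 members listed for the exit tunnel lay between 0.02 and 0.33 with a median of 0.09. The 7 listed for the central protuberance lay between -0.14 and 0.30 with a median of 0.11. These lists need not hold every protein of a site: Mrpl17, not listed for the exit tunnel, had a value of -0.17. No member of either list was called without or with the block.

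A split by origin gave similar values. The 45 members with a bacterial relative had a median log2 fold change of 0.11 and, with the block, 2 calls in each direction, where 10.3% of all genes tested were called higher and 15.6% lower. The 28 classed as found in mitochondria only had a median of 0.06 and, with the block, 1 call, Mrps33. The other 4 were not classed. The classes split the related Mrps18 genes: Mrps18c was counted with the bacterial relatives, Mrps18b as mitochondria only, and Mrps18a was not classed.

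The 3 paralogues of a bacterial small-subunit protein have different places: the proteins of Mrps18b and Mrps18c sit in the small subunit, and that of Mrps18a in the large one. Their log2 fold changes were 0.02 for Mrps18b, 0.29 for Mrps18c and -0.14 for Mrps18a, each with an adjusted p of at least 0.64 without and 0.15 with the block. Mrps30, whose protein also sits in the large subunit in spite of its symbol, had a value of 0.30 (adjusted p = 0.58). Mrps36, whose protein is a subunit of the oxoglutarate dehydrogenase complex of the citric acid cycle, had a value of 0.24 (adjusted p = 0.75). With Mrps18a and Mrps30 counted as large-subunit and Mrps36 left out, the median was 0.08 over 50 large-subunit members and 0.12 over 26 small-subunit members.

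As a sum, the members made up 6658, 5308 and 6219 CPM in untreated libraries 1, 2 and 3 and 6729, 5449 and 6940 CPM in doxycycline libraries 1, 2 and 3. The means were 6061 ± 689 and 6373 ± 807 CPM (SD, n = 3 each), a difference smaller than either SD, and the groups overlapped. Within numbers the log2 differences were 0.02, 0.04 and 0.16. The sum of the large-subunit symbols over that of the small-subunit symbols was 2.165, 2.13 and 2.28 in untreated and 2.05, 2.07 and 2.19 in doxycycline libraries. It was lower with doxycycline within each number, by a log2 difference of -0.08, -0.04 and -0.06, although the groups overlapped.

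Within equal numbers the members leaned upward slightly. The doxycycline library was above the untreated one in all 3 numbers for 35 of 77 members (45.5%) and below it in all 3 for 8 (10.4%), where the shares over all genes tested were 28.0% and 29.4%. The lean was not particular to the members: the shares were 47.1% and 17.6% for mitochondrial translation factors and 36.8% and 6.58% for cytosolic ribosomal proteins. Activators of nuclear genes for mitochondria had 23.1% and 30.8%. In the block fit 54 members were above 0, and 47 with the length and GC correction added. The median difference over the members was 0.01, 0.05 and 0.16 in numbers 1, 2 and 3, and over all genes it was -0.01, 0.02 and -0.03. The Mrpl median was -0.01, 0.05 and 0.18, and the Mrps median 0.12, 0.05 and 0.13.

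Differences between replicate numbers 2 and 1 were wider than those with doxycycline. The median size of a member's log2 difference, sign aside, was 0.34 between those numbers and 0.13 with doxycycline. The former sets 2 libraries against 2 and the latter 3 against 3, so their noise is unlike. Over all genes tested the median size with doxycycline was 0.23, and the size between numbers 2 and 1 is not given for them. Between numbers 3 and 1 the members' median with its sign was 0.03, in which opposite shifts by chromosome, given below, can cancel. All these values are from the fit with the block. In that fit, 45 of 77 members (58.4%) differed between the numbers, against 43.3% of all genes tested. Between numbers 2 and 1, 25 members were lower in number 2 and 0 higher, against 7.13% of all genes lower and 13.9% higher. The estimate was below 0 for 76 of the 77, with a median of -0.34 on the log2 scale over the members and of -0.01 over all genes. Mrpl41, at 86.0, 51.9 and 61.0 CPM in untreated and 84.5, 53.3 and 67.5 CPM in doxycycline libraries, had the lowest value, -0.70, and was chosen for it. Number 2 was the lowest library of both groups for 60 members (77.9%), a pattern that 22.6% of all genes tested showed. Against number 2, number 3 was higher for 37 members and lower for 1 (13.3% and 19.4% of all genes), with a median of 0.33.

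Cytosolic ribosomal proteins showed the same contrast: 41 of 76 were lower in number 2 than in number 1 and 0 higher, with a median of -0.44. Transcripts of both kinds of ribosomal protein are short. The median exon length was 1398 bases for the members and 992 bases for the cytosolic ribosomal proteins, against 2693.5 bases over all genes tested. Across 14004 genes with a known length, length and the difference between numbers 2 and 1 had a Spearman correlation of 0.51, and across the 77 members one of 0.25, both from the same libraries. With the correction for exon length and GC content, the members' median between numbers 2 and 1 was -0.15, and 13 were called lower and 0 higher, against 2.86% and 3.46% of all genes, while 42 differed between any of the numbers, against 37.9%. For the cytosolic ribosomal proteins the corrected median was -0.17, and 2 of 76 were called lower and 0 higher, down from 41 lower. The correction was fitted to these same libraries, so it takes out their trend with length whatever lies behind it. Over all genes the share called lower also fell, from 7.13% to 2.86%. The part of length or GC content in the difference between numbers 2 and 1 was not tested. Neutrophil markers also moved with the number: 5 of the 6 tested were higher in number 2 than in number 1, with a median of 7.98 on the log2 scale. Their part in the members' difference was not tested.

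**Figure D3:**
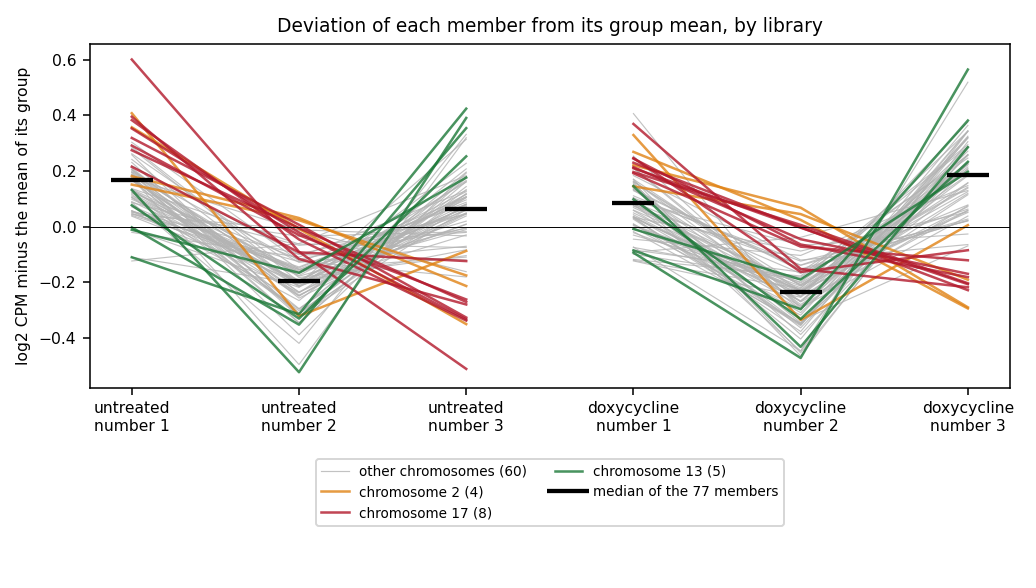
Log2 CPM of each of the 77 members minus the mean of its group (vertical axis), by library, with lines joining the 3 libraries of a group and black bars for the median of the members. In both groups the median is lowest in number 2, and in number 3 the members on chromosome 17 (red) lie below the mean of their group, those on chromosome 2 (orange) likewise except Mrpl41 in the doxycycline group, and those on chromosome 13 (green) above it.

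Between numbers 3 and 1 the members split by chromosome. Of the 77, 14 were called in the block fit, 12 lower and 2 higher in number 3, against 13.9% of all genes lower and 11.5% higher. All 14 lay on chromosomes 2, 13 and 17, and 0 of the 60 members on other chromosomes were called. Other genes of those chromosomes, X aside, did differ: 9.32% of 11159 were called lower and 11.7% higher in number 3. The members of these chromosomes are named here because of this pattern, after their values were seen.

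All 8 members on chromosome 17 were lower in number 3: Mrpl2, Mrpl14, Mrpl18, Mrpl28, Mrps10, Mrps18a, Mrps18b and Mrps34, with log2 differences between -0.85 and -0.33 and a median of -0.52 (adjusted p between 0.0020 and 0.043). Mrpl14, one of the bacterial relatives of the large subunit, showed the lowest value, with 63.4 and 29.3 CPM in untreated libraries 1 and 3 and 62.0 and 41.3 CPM in doxycycline libraries 1 and 3. All 4 members on chromosome 2, Mrpl41, Mrps2, Mrps5 and Mrps26, were lower too, by a median of -0.43. Mrps26 stood at 107.8 and 66.0 CPM in untreated libraries 1 and 3 and at 106.4 and 72.1 CPM in doxycycline libraries 1 and 3.

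On chromosome 13 the direction was the opposite. Mrps27 rose by 0.50 (SE 0.10) and Mrpl36 by 0.51 (SE 0.12), and the other 3, Mrpl32, Mrps30 and Mrps36, had values of 0.16, 0.16 and 0.23 that did not pass. Mrps27 stood at 77.8 and 112.6 CPM in untreated libraries 1 and 3 and at 86.1 and 118.9 CPM in doxycycline libraries 1 and 3. In each group taken alone, number 3 was below number 1 for 8 of 8 members on chromosome 17 and 4 of 4 on chromosome 2, and above it for 5 of 5 on chromosome 13.

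The other genes of these chromosomes shifted in the same directions, though most were not called. In number 3, 39.1% of the genes tested on chromosome 17 were called lower and 4.78% higher. On chromosome 2 the shares were 34.5% lower and 4.69% higher, and on chromosome 13 they were 2.69% lower and 37.4% higher. Over all genes tested the median between numbers 3 and 1 was -0.36 on chromosome 17 (711 genes), -0.30 on chromosome 2 (1109 genes), 0.37 on chromosome 13 (521 genes) and -0.56 on chromosome X (504 genes, no member), beside 0.05 over the 11159 genes on the others. On chromosome 17 the shift was in the first 50 Mb, where all 8 members lie: the median was -0.46 over 537 genes there and 0.01 over 174 genes beyond, a boundary set after the values were seen. In untreated libraries alone the medians for chromosomes 17, 2 and 13 were -0.35, -0.29 and 0.43, and in doxycycline libraries alone -0.34, -0.32 and 0.30. With doxycycline the same chromosomes had medians of -0.02, 0.02 and 0.02 in the block fit. Between numbers 3 and 1, 5 of the 9 erythroid markers were higher and 0 lower. What lies behind a shift of whole chromosomes between the numbers was not tested.

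**Figure D4:**
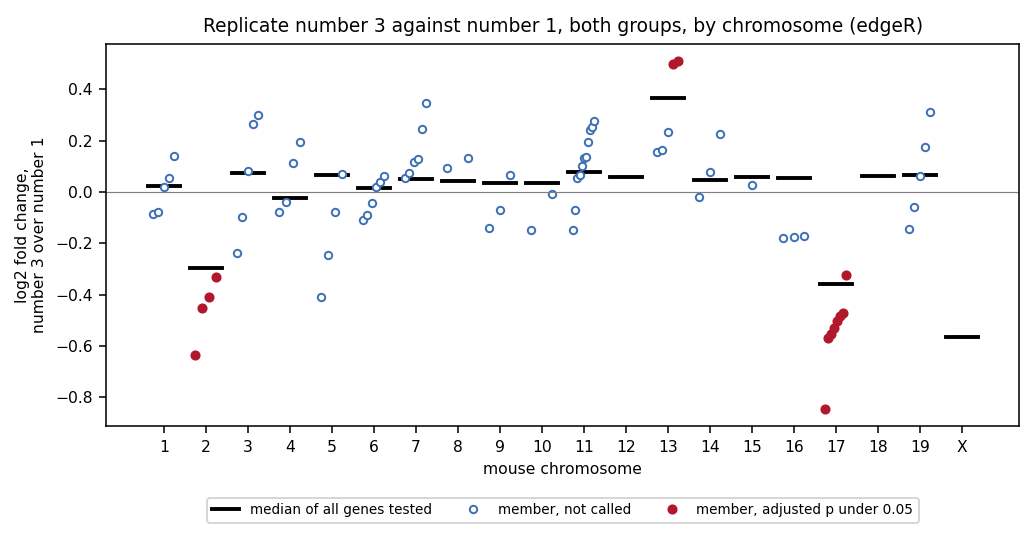
Log2 fold change of number 3 over number 1, both groups together (block fit), for each member (circles, red where the adjusted p is under 0.05) and the median of all genes tested (bars), by mouse chromosome. The 14 red circles lie on chromosomes 2, 13 and 17, near the displaced bars of those chromosomes, and no member lies on 12, 18 or X.

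The partners of these proteins in mitochondrial translation were tested by lists drawn up from general knowledge. Over all genes tested, 2.59% were called without the block, and with it 10.3% were called higher and 15.6% lower. The 5 mitoribosomal proteins with other symbols had a median log2 fold change of 0.23, and 0 were called without the block. With it 1 was called: Dap3, a GTP-binding protein of the small subunit, at 192, 169 and 180.2 CPM in untreated and 242, 212 and 258 CPM in doxycycline libraries, rose by 0.39 (SE 0.09, adjusted p = 0.0081). Its groups did not overlap. Ptcd3, an RNA-binding small-subunit protein, had a value of 0.23 (adjusted p = 0.086 with the block).

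Of 17 mitochondrial translation factors, 0 were called in either fit and the median was 0.08. The most abundant were Lrpprc, which stabilises mitochondrial mRNAs, with a log2 fold change of 0.06, and Gfm1, an elongation factor, with -0.15. Of 33 genes of rRNA processing and ribosome assembly, 0 were called without the block. With it 3 rose and 1 fell, against 10.3% and 15.6% of all genes tested. The called genes were the assembly GTPases Mtg1 (0.40) and Eral1 (0.36) and the pseudouridine synthases Rpusd3 (0.48) and Rpusd4 (-0.51), all chosen after their values were seen. Of 20 mitochondrial aminoacyl-tRNA synthetases, 0 were called without the block and 1 in each direction with it, against the same shares.

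Of 13 genes of mitochondrial transcription and replication, 0 were called without the block. With it 3 rose, where 10.3% of all genes tested rose and 15.6% fell. Among the 3 were Tfam, which packages mitochondrial DNA and starts its transcription (0.31, adjusted p = 0.026), and the helicase Twnk (0.30, adjusted p = 0.022). Of 13 activators of nuclear genes for mitochondria, 0 were called without the block, and with it 1 rose and 2 fell, against the same shares. The ETS-family activator of many such genes has a DNA-binding subunit, Gabpa, and partner subunits. Gabpa stood at 139.3, 164 and 170.5 CPM in untreated and 117, 114 and 139.3 CPM in doxycycline libraries, and Gabpb1 at 58.2, 47.9 and 44.3 against 91.5, 70.3 and 63.4 CPM. With the block Gabpa fell by 0.36 (adjusted p = 0.016), Gabpb1 rose by 0.57 (adjusted p = 0.0011), and Tfe3, a basic helix-loop-helix factor of lysosomal and mitochondrial genes, fell by 0.72 (adjusted p = 0.00062), all named after their values were seen. Gabpb2, a partner subunit more abundant than Gabpb1, had a value of -0.07 with the block and was not called (adjusted p = 0.69). Tfe3 stood at 54.1, 63.0 and 59.0 CPM in untreated and 29.2, 37.7 and 40.9 CPM in doxycycline libraries, with no overlap. Myc had a value of -0.08 and was not called.

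The RNAs of the mitochondrial ribosome did change. The large rRNA mt-Rnr2 stood at 429, 432 and 408 CPM in untreated and 739, 628 and 860.1 CPM in doxycycline libraries, and rose by a log2 fold change of 0.81 (SE 0.15, adjusted p = 0.036). The small rRNA mt-Rnr1 stood at 360.4, 350.1 and 385 CPM in untreated and 574, 489.6 and 670.1 CPM in doxycycline libraries, a value of 0.66 with an adjusted p of 0.072 without and 0.00077 with the block. No doxycycline library of either rRNA overlapped with the untreated ones. The call of mt-Rnr2 without the block was lost with no filter on low counts (adjusted p = 0.069), with the length and GC correction (0.054) and without any single library except doxycycline library 2 (0.097 to 0.15). With the block the adjusted p was 0.00059.

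Of 12 mitochondrially encoded mRNAs measured, 0 were called without the block and 5 rose with it, where 10.3% of all genes tested rose. The median log2 fold change of the 12 was 0.38 without the block. With the length and GC correction added to the block it was 0.25, and 2 rose, against 13.6% of all genes tested. Besides mt-Co1, the genes called with the block were mt-Nd3, mt-Co2, mt-Co3 and mt-Atp8, at untreated means of 1.48, 5.94, 7.22 and 1.53 CPM. The more abundant mt-Nd2, mt-Nd4, mt-Nd5 and mt-Cytb had values of 0.19, 0.08, -0.03 and 0.04, called in neither fit. All 8 were named after their values were seen. The most abundant of the 12, mt-Co1, stood at 4228, 5151 and 4334 CPM in untreated and 6405, 6561 and 7251 CPM in doxycycline libraries, a value of 0.56 (adjusted p = 0.090 without and 0.0067 with the block). mt-Nd1 had a value of 0.19 and was not called in either fit. Several of these genes have near-identical copies in the nuclear genome, between which the counting could split reads, and the library kit selects poly(A) RNA, so levels of mitochondrial RNA depend on both. Of 18 mitochondrial chaperones and proteases, 0 were called without the block. With it 4 rose and 1 fell, against 10.3% and 15.6% of all genes tested. Hspa9 was among those that rose (0.40, adjusted p = 0.017), while the chaperonin Hspd1 had a value of 0.00.

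**Figure D5:**
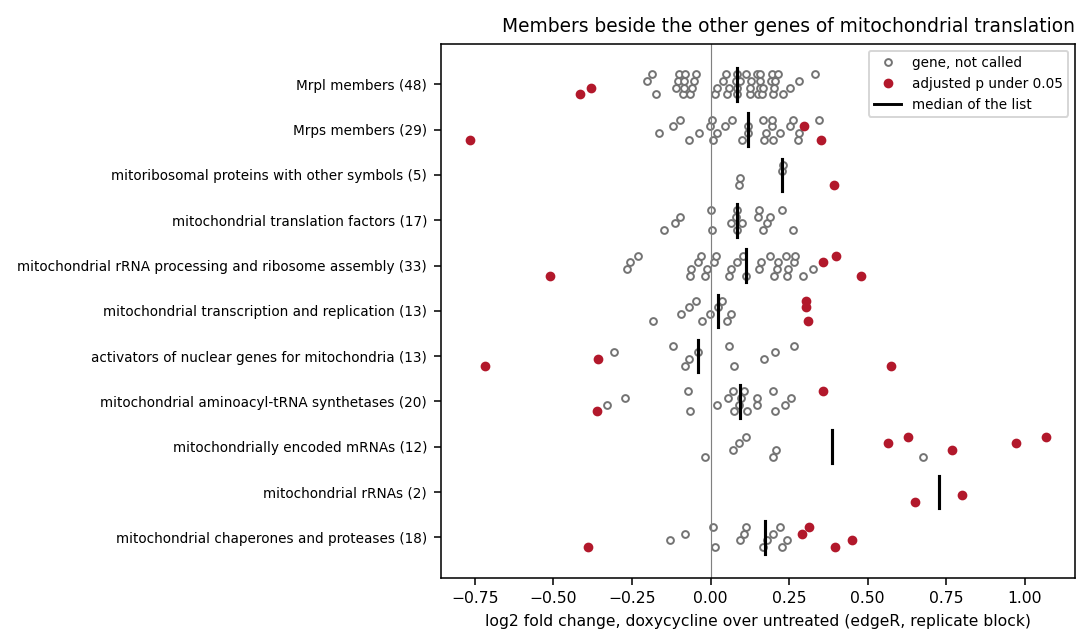
Log2 fold change with doxycycline in the block fit (horizontal axis) of the Mrpl and Mrps genes and of the genes of each list, number tested in parentheses, with red points for an adjusted p under 0.05 and black bars for medians. The members gather around bars at 0.08 and 0.12, and the bars of the mitochondrially encoded mRNAs and rRNAs lie at 0.39 and 0.73.

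The kit does not mark the strand, and 25 members share exon bases with another annotated gene, 16 of them with a protein-coding one, so their reads cannot be told apart there. Among the members called with the block, Mrpl21 shares 117 bases with Ighmbp2 (log2 fold change -0.28 with the block, adjusted p = 0.13) and Mrpl36 shares 30 bases with Ndufs6 (0.23, adjusted p = 0.11). The longest overlap was that of Mrps25 with Nr2c2, 3533 bases, and neither was called. Some partners were called higher by edgeR with the block. They were Mtbp (0.37, adjusted p = 0.016), Twnk (0.30, adjusted p = 0.022) and Rab6a (0.27, adjusted p = 0.048). Mtbp shares 330 bases with Mrpl13, Twnk 385 with Mrpl43 and Rab6a 403 with Mrpl48, and these members were not called. The other partners tested were not called. Mrps33, Mrps10 and Mrps28 had no such overlap.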

How the data were processed

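Poly(A) RNA of 6 libraries was sequenced after Illumina TruSeq RNA v2 preparation, per the labels' protocols. The authors deposited raw read counts per gene symbol. Tools named in the submitters' processing notes, with no role stated, are STAR, DESeq2 and bcl2fastq 2.17.1.14, and the builds are mm10 and GRCm38. The counting tool, annotation and strand setting were not given in the sources used here. The smallest value of every column was 1 and no 0 occurred.

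The counts were tested as deposited with edgeR 4.0.16 (limma 3.58.1, R 4.3.3): filterByExpr, TMM factors, quasi-likelihood F test, two-sided, group as the only term, Benjamini-Hochberg adjustment over 14158 genes, threshold 0.05. CPM are on TMM-scaled library sizes. An SE is the size of the log2 fold change over the square root of F. The replicate number was added as a block in an alternative. The numbers pair the samples: across genes, deviations from the group means correlated at 0.77, 0.74 and 0.72 for libraries of equal number, and at -0.59 to -0.09 for unlike ones. The block lowered the biological coefficient of variation from 28.6% to 11.3% and the residual degrees of freedom from 4 to 2. Differences between numbers were F-tested in the block fit. Other alternatives were RLE scaling, DESeq2 1.42.0, no filter, a loess correction for exon length and GC content (span 0.3), each library left out and, added after the data were seen, 1 taken off each count and further block fits. The fits were tested on simulated counts.

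Exon lengths and positions came from GENCODE M21 (GRCm38), which held 25089 of the 25628 symbols and all 77 members. 5 list genes were matched by another symbol through RefSeq. Named genes were Spi1, members called in either fit, the 3 most abundant per length in each subunit, the 3 largest and 3 smallest fold changes, members of fixed roles and, for each list, the called or else the 2 most abundant genes. Others are said to be chosen after their values were seen. Members and lists were chosen with earlier results of these data known. No test was made over the members as a set.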

Additional observations from a re-analysis of the deposited data

How the results depend on the processing

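The number of members called stayed at 0 with RLE scaling, DESeq2, no filter, the length and GC correction, 1 taken off each count and without any single library. It was 5 with the replicate block, 9 with the block and the length and GC correction, 4 with the block and 1 taken off each count, and 6 with the block and RLE scaling. Leaving out numbers 1, 2 and 3 in turn from the block fit gave 0, 6 and 11. Over all genes, 367 were called, 910 by DESeq2, 3658 with the block, 4097 with the block and the length and GC correction, 3562 with the block and 1 taken off, 3740 with the block and RLE scaling, 1248, 3429 and 4748 with the block without numbers 1, 2 and 3, and between 38 and 268 without any single library.

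The members' median log2 fold change, 0.09, lay between 0.014 (without untreated library 2) and 0.20 (without untreated library 1) when a library was left out. The log2 ratio of the summed levels, 0.07, lay between -0.015 (without untreated library 2) and 0.17 (without doxycycline library 2). Its size and its sign thus depended on single libraries.

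Of 702 values of named genes under alternatives, 577 kept direction and side of the threshold, 62 were newly called, 7, all of mt-Rnr2, lost their call and 56 changed sign. No gene that changed sign was called in the fit without the block. With DESeq2 these were Ddx18 (0.017) and Gabpb2 (0.010). With the block Mrps21 was at -0.0011, and at -0.0022 with 1 taken off. With the length and GC correction, without and with the block, Mrps21 was at -0.20 and -0.20, Mrps12 at -0.062 and -0.061, Mrps18b at -0.024 and -0.029 and Gabpb2 at 0.10 and 0.10. In the block fit, Mrpl10 was at 0.0022 and Hspd1 at -0.032 without number 1, Mrps12 at -0.00055 without number 2, and without number 3 Mrpl12 was at -0.021, Mrps21 at -0.042, Mrps12 at -0.054, Mrpl45 at -0.021, Gabpb2 at 0.090 and Lars2 at -0.13. When a single library was left out, the ranges were -0.24 to 0.070 for Mrpl20, -0.29 to 0.10 for Mrps18a, -0.055 to 0.16 for Lrpprc, -0.032 to 0.081 for Hspd1, -0.077 to 0.16 for Mrpl12, -0.15 to 0.16 for Mrps21, -0.10 to 0.27 for Mrpl11, -0.13 to 0.13 for Mrps12, -0.079 to 0.14 for Mrpl45, -0.085 to 0.16 for Mrps18b, -0.40 to 0.15 for Gabpb2, -0.067 to 0.32 for Lars2, -0.22 to 0.019 for Mrpl10, -0.088 to 0.021 for Ddx18 and -0.15 to 0.046 for Grsf1. The cause of these changes was not tested.

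With 3 libraries a group and the spread between numbers left in the model, a member's 95% interval reached 0.43 to either side of its log2 fold change in the median, and 0.20 with the block.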
